A study of Rattus norvegicus with 18 samples.

Results

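Egr1, Klf2, Klf4, Klf6, Ier2, Ier3, Ier5 and Myc are early response genes, and they were chosen by name from the deposited table of expression values. Of the 8 names, 7 were found among the 32545 genes of that table and all 7 passed the filter on low values that 11917 genes passed. Ier2 was not analysed here. Poly(A) RNA was sequenced from H9C2, a line of muscle cells derived from embryonic rat heart, in 18 libraries that formed 6 groups of 3. NC received nothing. ES10 and ES50 received 10 or 50 electric pulses of 1500 V/cm and 100 µs each. P was kept with 50 µmol/L PE for 48 h, an agent that the labels do not spell out. P_ES10 and P_ES50 received the same PE and then 10 or 50 of the same pulses. The time from the pulses to RNA extraction is not given in the sources used here. No label says that the 3 libraries of a group came from separate cultures, so p-values measure only the spread between these libraries, which may be technical. All groups are 1 cell line.

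Immediate early genes are transcribed within minutes of a stimulus from factors already present in the cell. In the best known route, ERK kinases phosphorylate ternary complex factors, which sit with serum response factor on a CArG box, a short A/T-rich element with C and G ends. EGR1 is a zinc finger transcription factor that binds GC-rich sites and is held back by the corepressors NAB1 and NAB2. KLF2, KLF4 and KLF6 are zinc finger factors that bind CACCC and GC boxes. KLF2 and KLF4 are known for their response to flow in endothelium and KLF4 for its part in smooth muscle phenotype. IER3 is a small stress-induced protein linked to survival signalling, and IER5 takes part in the heat shock response. MYC pairs with MAX on E-boxes and drives genes of ribosome production and growth. In heart muscle, EGR1 and MYC are classical early markers of hypertrophic stimulation.

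The promoters of Egr1 and Klf6 are shown because they were the 2 of the 5 with a RefSeq promoter entry (Egr1, Klf4, Klf6, Ier2 and Ier5) that hold a CArG box in the window searched. Klf2, Ier3 and Myc are named only. Both sequences are the 250 bases before the annotated start, read 5′ to 3′ on the gene's strand, from RefSeq on build GRCr8, with CArG boxes in capitals. The Egr1 window is chr18:26736828-26737077 on the plus strand, and the Klf6 window is chr17:69458479-69458728 on the minus strand.
Egr1: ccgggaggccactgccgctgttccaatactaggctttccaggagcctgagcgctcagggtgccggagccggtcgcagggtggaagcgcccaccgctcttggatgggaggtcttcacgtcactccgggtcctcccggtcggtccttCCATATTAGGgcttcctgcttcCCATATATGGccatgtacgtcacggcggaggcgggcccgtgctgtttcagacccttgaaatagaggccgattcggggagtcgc
Klf6: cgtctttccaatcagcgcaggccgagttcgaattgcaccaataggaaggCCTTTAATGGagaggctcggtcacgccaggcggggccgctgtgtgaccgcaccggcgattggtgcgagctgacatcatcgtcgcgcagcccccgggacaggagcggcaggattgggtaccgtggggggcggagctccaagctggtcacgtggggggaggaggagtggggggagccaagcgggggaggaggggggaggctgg

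Motifs were searched on both strands over 250 bases before to 50 bases after the start. The Egr1 window held 2 CArG boxes, from -105 to -96 and from -83 to -74, and the Klf6 window held 1, from -201 to -192. Of 33469 rat promoters of the same length, 1.64% held at least 1 CArG box and 7 (0.0209%) held 2 or more. Among 26 other early response genes with an entry, 2 held one. The CRE core TGACG, which the factor CREB can bind, occurred 2 times in the Egr1 window and is found in 21.2% of all promoters. The whole CRE, TGACGTCA, occurred in the Ier2 window and in 1.83% of promoters, and both core matches of Ier2 lie within it. The GC box GGGCGG was present for Klf6 and Ier5 (33.1% of promoters), the CACCC box CCACCC for Egr1 and Ier5 (29.4%), and the E-box CACGTG for Klf6 (6.42%). TATAAA, found in 14.2% of promoters, occurred 1 time for Ier5, from -45 to -40, and 2 times for Klf4, on the reverse strand from -146 to -141 and from -78 to -73. The EGR site GCGNGGGCG, found in 4.98% of promoters, was in none of the 5 windows. A match describes letters only.

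On build Rnor 6.0, which the deposited table uses, Egr1 (ENSRNOG00000019422) lies on chromosome 18 at 27657628 to 27661429 and Myc (ENSRNOG00000004500) on chromosome 7 at 102586313 to 102591237, both on the plus strand. The other five are on the minus strand. Klf2 (ENSRNOG00000014205) lies on chromosome 16 at 19223087 to 19225037, Klf4 (ENSRNOG00000016299) on chromosome 5 at 72283313 to 72287669, and Klf6 (ENSRNOG00000016885) on chromosome 17 at 67887939 to 67945037. Ier3 (ENSRNOG00000000827) lies on chromosome 20 at 3438798 to 3440769, and Ier5 (ENSRNOG00000059406) on chromosome 13 at 72742211 to 72744303. They are short genes: 6 of the 7 spanned less than the median of 19906 bases over 10816 tested protein-coding genes, and Klf6 spanned 57099 bases.

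Reads on genes were 14004929 to 17247201 per library. Mitochondrial transcripts made up 91.41 to 92.87% of these in ES50, 46.7 to 49.64% in P_ES50, 11.6 to 13.97% in NC and 5.411 to 5.597% in P. ES50 libraries therefore held only 1230554 to 1466851 reads on nuclear genes, against 7813779 to 8060502 in P_ES50 and at least 12059244 in every library of the other 4 groups. Values are FPKM (fragments normalized to gene length and library depth) as deposited, on a scaling that sets the median gene about equal between libraries. Put on total reads instead, the median tested gene moved from a log2 difference of -0.13 to -2.43 between ES50 and NC and from -0.01 to -0.77 between P_ES50 and P, so that each direction after 50 pulses below is relative to the other nuclear genes unless the total is named. In bulk samples, fewer cells of a type and less RNA per cell cannot be told apart. Of 11 cardiomyocyte markers 4 passed the filter, and in ES50 versus NC 2 of these rose and 2 fell. Of all tested genes 31.9% rose and 40.1% fell in this comparison. Their summed level, 17.1 to 19.3 FPKM in NC and 50.9 to 58 in ES50, followed Tnnt2 (mean 12.1 and 40.2) and Pln (1.64 and 12.3), while Tnni3 (2.18 and 0.512) and Nppb (2.23 and 1.43) were lower. Myh6, Myh7, Ryr2, Actn2, Myl2 and Myl7 did not pass the filter. The summed level of 5 smooth muscle markers was 2160 to 2360 FPKM in NC and 5460 to 5680 in ES50, and that of 6 fibroblast markers was 2260 to 2350 and 462 to 501. All 5 smooth muscle markers rose and all 4 tested fibroblast markers fell on the deposited scale, against the same 31.9% and 40.1%. Endothelial markers summed to at most 1.05 FPKM in every group, and Cdh5, Ptprc and Adgre1 were listed at 0 in all libraries. The part of these shares and markers in the results on 50 pulses was not tested.

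**Figure D1:**
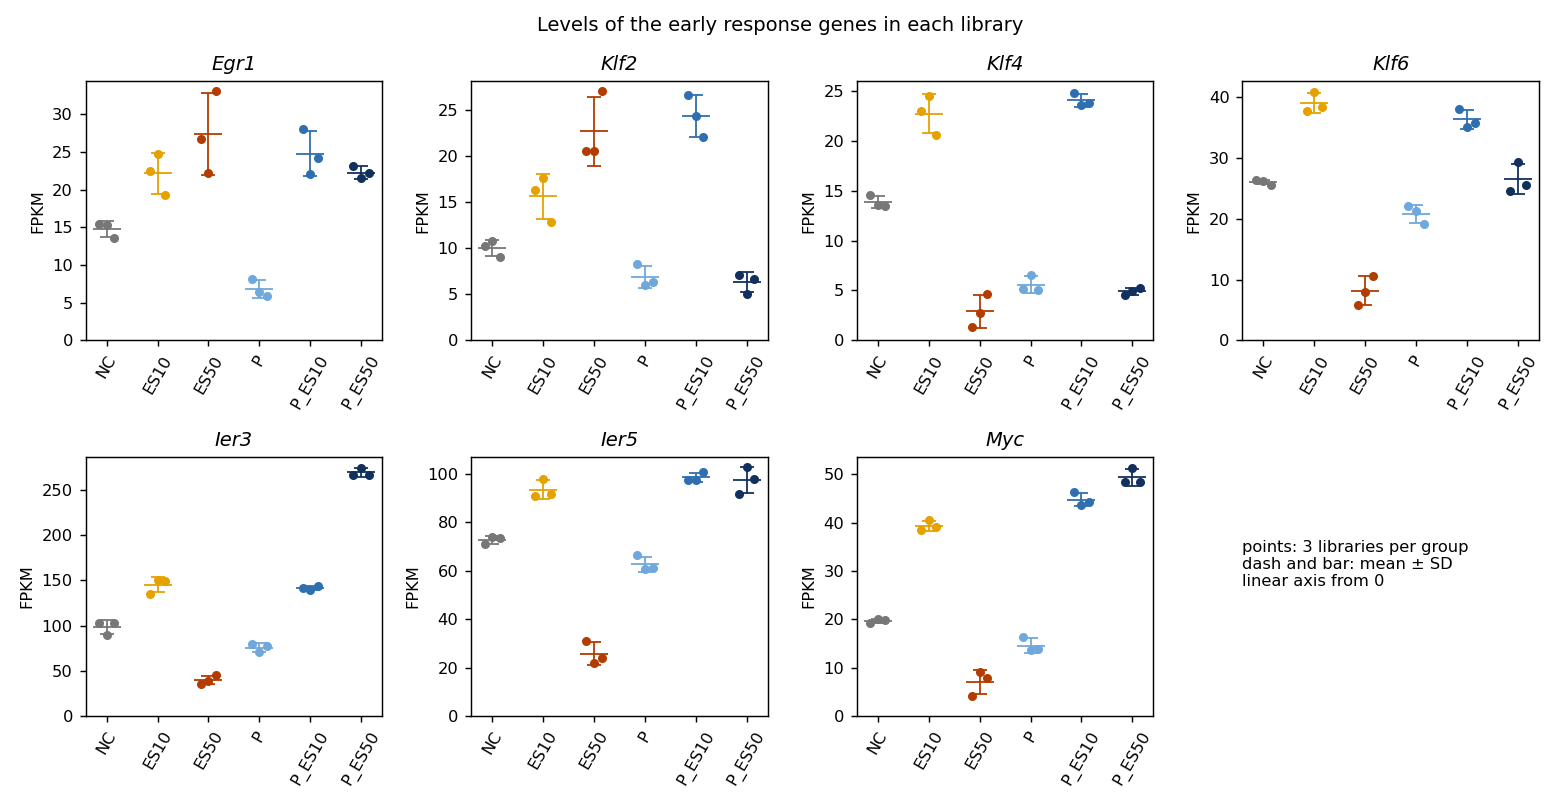
FPKM (linear axis from 0) of the 7 genes in each of the 18 libraries, by group, with points for libraries and a dash and bar for the mean ± SD of 3. All 7 genes are higher in ES10 than in NC and in P_ES10 than in P, while ES50 is high for Egr1 and Klf2 and low for the other five on the deposited scale. With total reads as the scale, ES50 is below NC for all 7, and 11471 of 11917 tested genes were called lower.

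A dose of 10 pulses without PE raised 6 of the 7 genes over the untreated cells, with Myc showing the largest increase and Ier5 the smallest. All 7 genes were higher in every ES10 library than in every NC library. With limma and Benjamini-Hochberg adjustment over 11917 genes, 6 rose, where 6.36% of tested genes rose and 8.57% changed in either direction. Higher levels without overlap of the libraries were found for 23.9% of tested genes. The median log2 change of the 7 was 0.57, against 0.02 over all tested genes. Over all genes, the split between higher and lower calls was 758 and 263 as deposited and 356 and 620 with libraries scaled to reads on nuclear genes, where Ier5 no longer passed (adjusted p = 0.0851). The ES10 and ES50 comparisons share the NC libraries. Of 6 skeletal myoblast markers 3 were tested, and 1 rose in ES10 versus NC, Myod1 (mean 32.0 and 60.2 FPKM; 23.4 in P and 56.5 in P_ES10). Myog (0.951 and 0.319) and Des (9.10 and 8.80) did not pass. The summed level of the 6 was 41.2 to 43.2 FPKM in NC, 67.6 to 71.3 in ES10, 30.1 to 34.6 in P and 64.6 to 66.2 in P_ES10. That of 5 macrophage and leukocyte markers was 1.48 to 1.79 FPKM in NC and 3.03 to 3.13 in ES10, with Ptprc and Adgre1 at 0. Of these 5, 2 were tested and 1 rose, against 6.36% of tested genes. Means in NC and ES10 were 0.669 and 1.79 FPKM for Csf1r, 0.934 and 1.25 for Cd68, and 0.0661 and 0.04635 for Itgam. The part of these markers in the results on 10 pulses was not tested.

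Egr1 stood at 15.4, 15.3 and 13.6 FPKM in NC and at 22.5, 24.7 and 19.3 in ES10, a log2 change of 0.55 ± 0.14 (SE, limma adjusted p = 0.0193). Klf2 went from 10.2, 10.7 and 9.01 FPKM to 16.3, 17.6 and 12.9 (log2 change 0.59 ± 0.15, adjusted p = 0.0214). In both genes the third ES10 library was the lowest of its group and still above every NC library. Klf4 was measured at 14.6, 13.6 and 13.5 FPKM in NC and 23.0, 24.6 and 20.7 in ES10. Its log2 difference of 0.67 ± 0.21 did not pass the test (adjusted p = 0.0632), although the libraries did not overlap. It passed on total reads (adjusted p = 0.00136), with quantile normalization (0.0413), with only the groups compared (0.00166), without the 50-pulse libraries (2.42e-04) and with voom (8.25e-07). The main fit used a spread per gene pooled over all 6 groups. For Klf4 the SD was 57.7% of the mean in ES50, 4.42% in NC and 8.67% in ES10. Klf6 rose from 26.4, 26.2 and 25.6 FPKM to 37.7, 41.0 and 38.5 (log2 change 0.57 ± 0.13, adjusted p = 0.0137).

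Ier3, the most abundant of the 7 in NC, rose from 103, 89.3 and 103 FPKM to 136, 151 and 149 in ES10 (log2 change 0.56 ± 0.08, adjusted p = 2.86e-04). Ier5 rose from 70.9, 73.7 and 73.4 FPKM to 91.0, 97.8 and 91.4 (0.36 ± 0.09, adjusted p = 0.0191). Both groups were tight and did not overlap in either gene. Myc was at 19.27, 19.96 and 19.86 FPKM in NC and at 38.5, 40.5 and 39.1 in ES10, a doubling of its level (2.0-fold, log2 change 0.96 ± 0.16, adjusted p = 0.00134). The number of these genes that passed was 2 without NC replicate 3 or without ES10 replicate 2; Ier3 and Myc were those 2.

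PE for 48 h without pulses went with lower levels of the 7 genes. Egr1, Klf4, Klf2 and Ier3 fell, and the 3 others had lower values that did not pass. With limma, 4 of the 7 fell, where 4.81% of tested genes fell and 9.53% changed. All 7 were lower in each P library than in each NC library, a pattern that 20.7% of tested genes showed. Their median log2 difference was -0.42, against 0.00 over all tested genes.

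Egr1 was at 8.11, 6.38 and 5.89 FPKM in P, less than every NC library, and fell by 1.02 ± 0.14 on the log2 scale (adjusted p = 2.25e-04). Klf4 was at 5.19, 6.56 and 5.02 FPKM and fell by 1.18 ± 0.21 (adjusted p = 0.00237). These were the largest falls of the 7, to 0.46 and 0.403 of the NC mean. Klf2 was at 8.25, 6.04 and 6.30 FPKM and fell by 0.49 ± 0.15, with an adjusted p of 0.0497 at the edge of the threshold, which it missed without each of NC replicates 1, 2 and 3 and P replicates 2 and 3 (adjusted p from 0.0696 to 0.183). Ier3 was at 79.4, 70.3 and 77.0 FPKM and fell by 0.38 ± 0.08 (adjusted p = 0.00588). Klf6 (22.1, 21.2 and 19.1 FPKM, log2 difference -0.32, adjusted p = 0.157) did not pass. Ier5 (66.3, 60.6 and 61.3 FPKM, -0.21, adjusted p = 0.157) and Myc (16.3, 13.6 and 13.8 FPKM, -0.42, adjusted p = 0.126) did not pass either. Fitted on the NC and P libraries alone, all 7 passed as lower, where 2724 of 11917 tested genes passed, 1304 of them lower.

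After PE, 10 pulses raised all 7 genes, by 0.64 to 1.94 on the log2 scale. Klf4, Egr1, Klf2 and Myc rose 4.31-, 3.64-, 3.54- and 3.07-fold over the P mean, and the other three rose 1.57- to 1.87-fold. In limma 13.2% of tested genes rose in this comparison, 22.9% changed, and 27.2% were higher without overlap of the libraries. The median of the 7 was 1.56, against 0.00 over all tested genes. The P_ES10 and P_ES50 comparisons share the P libraries.

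Klf4 reached 24.9, 23.7 and 23.8 FPKM in P_ES10, against at most 6.56 in P (log2 change 1.94 ± 0.21, adjusted p = 8.68e-06). Egr1 reached 28.0, 22.1 and 24.2 FPKM (1.73 ± 0.14, adjusted p = 3.02e-07), and Klf2 reached 26.6, 24.4 and 22.0 FPKM (1.69 ± 0.15, adjusted p = 9.46e-07). In all 3 genes the lowest P_ES10 library was more than the highest P library. Myc reached 46.3, 43.6 and 44.3 FPKM (1.56 ± 0.16, adjusted p = 5.16e-06). Ier3 reached 142, 140 and 144 FPKM (0.90 ± 0.08, adjusted p = 7.31e-07). Klf6 and Ier5 rose least, Klf6 to 38.1, 35.2 and 35.8 FPKM (0.78 ± 0.13, adjusted p = 4.88e-04) and Ier5 to 97.3, 97.6 and 101 FPKM (0.64 ± 0.09, adjusted p = 7.52e-05).

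The levels reached after 10 pulses with and without PE were also set against each other. Klf2 was the gene of the 7 that passed in P_ES10 versus ES10, at 24.3 ± 2.30 against 15.6 ± 2.44 FPKM (SD, n = 3; log2 change 0.62 ± 0.15, limma adjusted p = 0.047), where 1.8% of tested genes passed. This call was lost when any 1 library of ES10 or P_ES10 was left out. For the other six the log2 difference lay between -0.10 (Klf6) and 0.18 (Myc), with intervals (95%) whose widest, for Klf4, ran from -0.37 to 0.53. Of these genes, Myc alone had separate libraries, from 38.5 to 40.5 FPKM in ES10 and from 43.6 to 46.3 in P_ES10. Its difference did not pass (limma adjusted p = 0.811). The share of all tested genes with separate libraries in this comparison was not counted.

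Whether the response to 10 pulses differed with PE was tested as an interaction. For 2 of the 7 genes the response was larger with PE, Egr1 by 1.18 ± 0.19 (adjusted p = 0.00635) and Klf2 by 1.11 ± 0.21 (adjusted p = 0.0173) on the log2 scale, where 0.906% of tested genes passed. The interaction equals the difference of P_ES10 from ES10 less that of P from NC. These 2 log2 differences were 0.15 and -1.02 for Egr1, 0.62 and -0.49 for Klf2, and 0.08 and -1.18 for Klf4. A larger response with PE thus includes a lower start in P, and the level of Egr1 after 10 pulses did not pass as different. Klf4 had an interaction estimate of 1.26 ± 0.30 that did not pass (adjusted p = 0.0659), and Myc one of 0.59 ± 0.23 (adjusted p = 0.427). The estimates for Ier3, Ier5 and Klf6 were 0.34, 0.29 and 0.22. The interaction of Klf2 was lost without NC replicate 1, NC replicate 2, ES10 replicate 3, P replicate 2 or P_ES10 replicate 1 (adjusted p from 0.0524 to 0.0605). In a fit without the 50-pulse libraries, 6 of the 7 passed as higher, where 693 of 11917 tested genes passed, 324 of them higher.

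**Figure D2:**
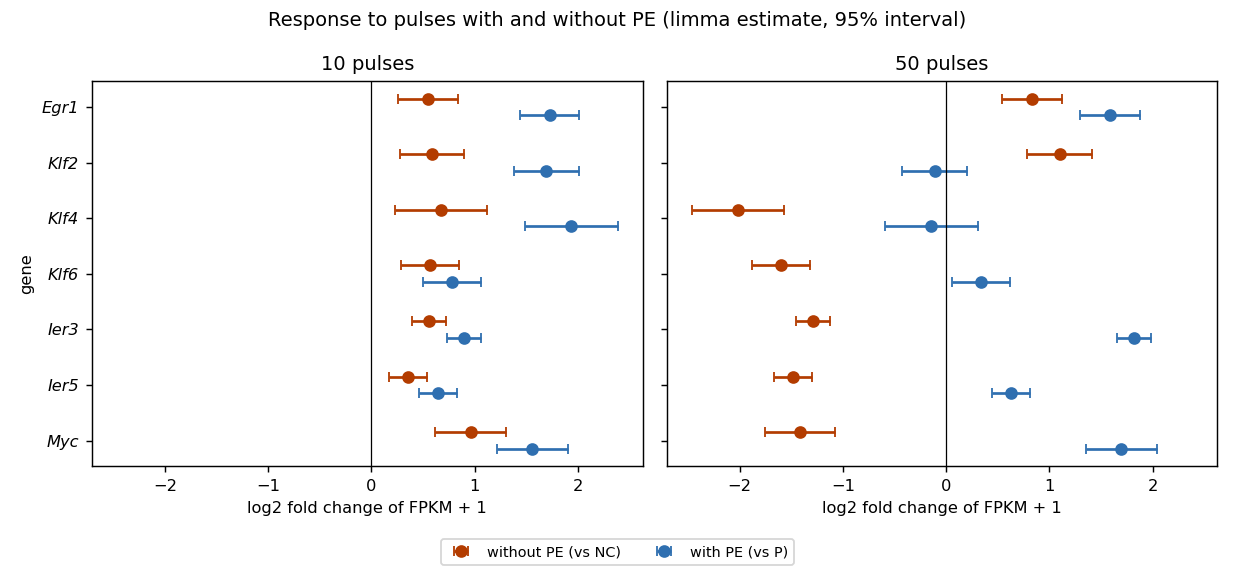
Log2 fold change of FPKM + 1 for 10 pulses (left) and 50 pulses (right), without PE (against NC) and with PE (against P), with limma estimates as points and 95% intervals as bars. At 10 pulses every estimate is above 0 and those with PE are larger. At 50 pulses without PE 5 of the 7 are below 0 on the deposited scale. All 7 are below 0 on total reads, a scale on which 11471 of 11917 tested genes were called lower.

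A dose of 50 pulses without PE split the 7 genes on the deposited scale. Egr1 and Klf2 rose, and Klf4, Klf6, Ier3, Ier5 and Myc fell, to between 0.21 and 0.404 of the NC mean. With libraries scaled to total reads all 7 fell, Egr1 by 2.39 and Klf2 by 2.06 on the log2 scale and the other 5 by more. There 11471 of 11917 tested genes were called lower. On the deposited scale all 7 passed in limma, 2 up and 5 down, where 72% of tested genes passed (31.9% higher and 40.1% lower). The share of mitochondrial reads was at least 91.41% in each ES50 library, and its part in these values was not tested.

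Egr1 was at 26.77, 22.21 and 33.04 FPKM in ES50, from 186, 183 and 243 reads, and its log2 change was 0.83 ± 0.14 (adjusted p = 4.95e-05). Klf2 was at 20.48, 20.51 and 27.00 FPKM, from 48, 57 and 67 reads, a change of 1.10 ± 0.15 (adjusted p = 6.53e-06). Both were above every NC library on this scale. Klf4 was at 1.33, 2.73 and 4.68 FPKM, from only 7, 17 and 26 reads, and fell by 2.02 ± 0.21 (adjusted p = 3.97e-07). Klf6 was at 5.847, 7.995 and 10.60 FPKM and fell by 1.60 ± 0.13 (adjusted p = 2.35e-08). The spread between ES50 libraries was wide in these genes, and yet each lay under all NC libraries.

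Ier3 was at 35.5, 38.8 and 45.2 FPKM in ES50 and fell by 1.29 ± 0.08 (adjusted p = 4.92e-10). Ier5 was at 31.0, 21.9 and 24.0 FPKM and fell by 1.48 ± 0.09 (adjusted p = 4.50e-10). Myc was at 4.24, 9.10 and 7.82 FPKM, from 22, 56 and 43 reads, and fell by 1.42 ± 0.16 (adjusted p = 1.05e-06). Ratios within a library do not depend on its scaling. The ratio of Klf2 to Klf4 was 0.67 to 0.792 in NC and 5.77 to 15.4 in ES50. That of Egr1 to Myc was 0.686 to 0.801 in NC and 2.44 to 6.32 in ES50. Both ratios join a gene that rose here with one that fell, so their separation follows from that choice. The ratio of Ier3 to Ier5, which both fell, overlapped (1.21 to 1.46 in NC and 1.15 to 1.88 in ES50). That of Egr1 to Klf2, which both rose, was 1.42 to 1.52 and 1.08 to 1.31. A ratio shows only whether 2 genes changed unequally.

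Set directly against 10 pulses, 50 pulses gave higher Klf2 (log2 change 0.51 ± 0.15, limma adjusted p = 0.00545) and lower Klf4, Klf6, Ier3, Ier5 and Myc (log2 changes from -2.69 to -1.84), where 74.3% of tested genes passed. Egr1, at 27.3 ± 5.44 against 22.2 ± 2.74 FPKM (SD, n = 3), did not pass and its libraries overlapped (0.28 ± 0.14, adjusted p = 0.0735). With 1 library left out its value ran from 0.14 to 0.42, and it passed without ES50 replicate 2 (adjusted p = 0.0112) or ES10 replicate 2 (0.0448). Scaled to total reads, all 7 were lower in ES50, Egr1 by -2.92 and Klf2 by -2.63 as log2 differences. There 11479 of 11917 tested genes were called lower.

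**Figure D3:**
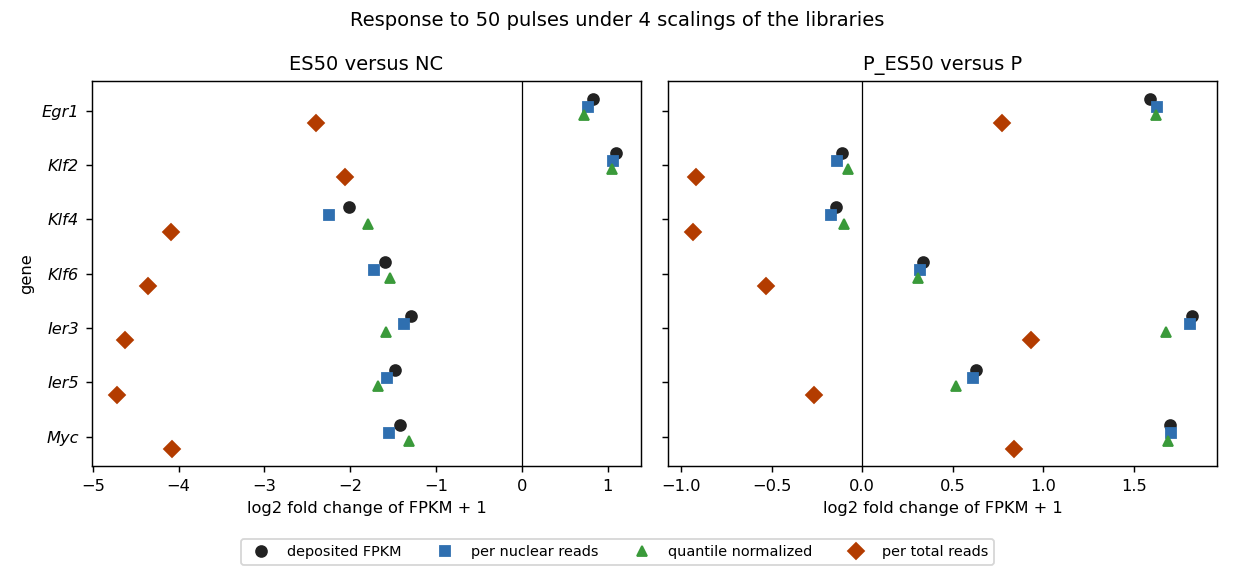
Log2 fold change of FPKM + 1 for ES50 versus NC (left) and P_ES50 versus P (right) under the deposited scaling, reads on nuclear genes, quantile normalization and total reads, with 1 point per gene and scaling. Scaling to total reads moves every point down and reverses Egr1 and Klf2 without PE and Klf6 and Ier5 with PE; the other scalings change no sign.

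With PE, 50 pulses gave another pattern. Ier3, Myc, Egr1 and Ier5 rose over P, while Klf2 and Klf4 overlapped with the P libraries and did not pass. In limma 4 of the 7 rose and none fell, where 14.1% of tested genes rose and 28.3% changed. Scaled to total reads, Egr1, Ier3 and Myc were higher and the other 4 were lower. The log2 differences of the 4 were -0.53 for Klf6, -0.26 for Ier5, -0.92 for Klf2 and -0.93 for Klf4. On that scale 90 of 11917 tested genes were called higher and 10461 lower. Mitochondrial reads were 46.7 to 49.64% in P_ES50 against at most 5.597% in P, and their part was not tested.

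Ier3 reached 267, 275 and 267 FPKM, the highest of its 6 group levels and 3.57-fold the P mean (log2 change 1.82 ± 0.08, adjusted p = 1.35e-10). Myc reached 48.4, 51.3 and 48.3 FPKM (1.70 ± 0.16, adjusted p = 1.92e-06), also its highest on the deposited scale. On total reads its mean of 47.1 in P_ES50 was below 74.7 in P_ES10 and 63.1 in ES10. Egr1 reached 23.2, 21.5 and 22.1 FPKM (1.59 ± 0.14, adjusted p = 6.23e-07). These 3 genes lay far above P in every library. Ier5 reached 91.8, 103 and 97.8 FPKM (0.63 ± 0.09, adjusted p = 7.91e-05). Klf6 was at 24.6, 29.3 and 25.6 FPKM, above every P library, and did not pass (0.34 ± 0.13, adjusted p = 0.07). Klf2 was at 7.12, 5.06 and 6.69 FPKM (-0.11, interval from -0.42 to 0.20, adjusted p = 0.636) and Klf4 at 4.58, 4.94 and 5.30 FPKM (-0.14, interval from -0.59 to 0.30, adjusted p = 0.67).

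From 10 to 50 pulses in PE-treated cells, Klf2 and Klf4 dropped the most. Klf2 fell by 1.80 ± 0.15 (adjusted p = 4.28e-07) and Klf4 fell by 2.08 ± 0.21 (adjusted p = 4.04e-06), and for both only 0.143% or less of tested genes had a lower estimate. Ier3 rose by 0.92 ± 0.08 (adjusted p = 4.95e-07) on the deposited scale and did not pass on total reads (0.12, adjusted p = 0.209). Klf6 fell by 0.44 ± 0.13 (adjusted p = 0.0227), a call lost without P_ES10 replicate 1 or 3 or P_ES50 replicate 1 or 3 (adjusted p from 0.0537 to 0.0826). Egr1 (-0.14, adjusted p = 0.515), Ier5 (-0.02, adjusted p = 0.917) and Myc (0.14, adjusted p = 0.601) did not pass on the deposited scale. In this limma comparison 4 of the 7 passed, 1 up and 3 down, where 23.4% of tested genes passed. On total reads none was higher and 6 were lower, among them Egr1 (-0.92, adjusted p = 3.68e-06), Ier5 (-0.82, adjusted p = 1.15e-08) and Myc (-0.66, adjusted p = 7.24e-05). On that scale 55 of 11917 tested genes were called higher and 10348 lower. The ratio of Ier3 to Ier5 within a library was 1.43 to 1.45 in P_ES10 and 2.68 to 2.91 in P_ES50, and that of Egr1 to Klf2 was 0.907 to 1.1 and 3.25 to 4.25.

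At 50 pulses, cells with PE differed from cells without it in 6 of the 7 genes (5 higher, 1 lower), where 69.6% of tested genes passed in limma. Ier3 was higher by 2.74, Myc by 2.70, Ier5 by 1.90 and Klf6 by 1.62 on the log2 scale, with no overlap of libraries. Klf4 was higher by 0.69 ± 0.21 (adjusted p = 0.00841) although its libraries overlapped, and this did not pass when the 6 libraries compared were fitted alone (adjusted p = 0.121). Its value was 0.37 without ES50 replicate 1 and 1.01 without ES50 replicate 3. Klf2 was lower in P_ES50 by -1.70 ± 0.15 (adjusted p = 5.29e-08) on the deposited scale and higher by 0.73 on total reads. Egr1, at 22.3 ± 0.832 in P_ES50 and 27.3 ± 5.44 FPKM in ES50, did not pass on the deposited scale (-0.27, adjusted p = 0.0911) and was higher in P_ES50 by 2.21 on total reads. On total reads 11107 of 11917 tested genes were called higher and 35 lower, and the median log2 difference over all tested genes was 1.75.

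The interaction of PE and 50 pulses passed for all 7 genes, where 59% of tested genes passed in limma. The response was more positive with PE for Ier3 (3.11 ± 0.11, adjusted p = 3.66e-12), Myc (3.11 ± 0.23, adjusted p = 1.54e-08), Ier5 (2.11), Klf6 (1.93), Klf4 (1.87) and Egr1 (0.76 ± 0.19, adjusted p = 0.0031). It was more negative with PE for Klf2, by -1.21 ± 0.21 (adjusted p = 1.33e-04), and this sign turned to 1.14 on total reads. There 10572 of 11917 tested genes were called higher and 19 lower, with a median of 1.65 over all tested genes.

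Ordered by level, the groups followed different sequences in the 7 genes on the deposited scale. For Egr1, ES50, P_ES10, P_ES50 and ES10 stood at 22.2 to 27.3 FPKM with overlap between neighbours, above NC and then P, which were separate. For Klf2, P_ES10 and ES50 overlapped at the top, ES10 and NC followed as separate steps, and P and P_ES50 overlapped at the bottom. Klf4 had P_ES10 and ES10 overlapping at the top, then NC, and then P, P_ES50 and ES50 with overlap between neighbours. Klf6 had ES10 and P_ES10 overlapping at the top, P_ES50 and NC overlapping below them, then P and ES50. Ier3 ran from P_ES50 through ES10 and P_ES10, which overlapped, to NC, P and ES50. Ier5 had P_ES10, P_ES50 and ES10 overlapping at the top, then NC, P and ES50. The order of Myc, P_ES50, P_ES10, ES10, NC, P and ES50, had separate libraries at every step. Its steps from P_ES50 to P_ES10, from P_ES10 to ES10 and from NC to P did not pass in limma. How many tested genes had such an order was not counted.

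Across libraries, the 7 genes formed no single pattern. Over the 15 libraries without ES50, Pearson's r of log2(FPKM + 1) was 0.986 for Ier5 and Myc, 0.94 for Egr1 and Ier5, and 0.915 for Klf2 and Klf4. It was -0.015 for Klf2 and Ier3 and -0.09 for Klf4 and Ier3. These values describe libraries that share their groups and scaling, and no p is given. Among 6963 genes with a mean of at least 5 FPKM, the most alike over these 15 libraries were Maff for Egr1 (0.967), Hmgcs1 for Klf2 (0.966), Nfat5 for Klf4 (0.982) and Nup98 for Klf6 (0.993). They were Raly for Ier3 (0.985), Myc for Ier5 (0.986) and Nup153 for Myc (0.991). Over all 18 libraries the most alike were Eif1 for Egr1 (0.948), Id1 for Klf2 (0.957), Mbnl2 for Klf4 (0.976), Ell for Klf6 (0.986), Rusc2 for Ier3 (0.986), Nup153 for Ier5 (0.992) and Rbm38 for Myc (0.977).

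**Figure D4:**
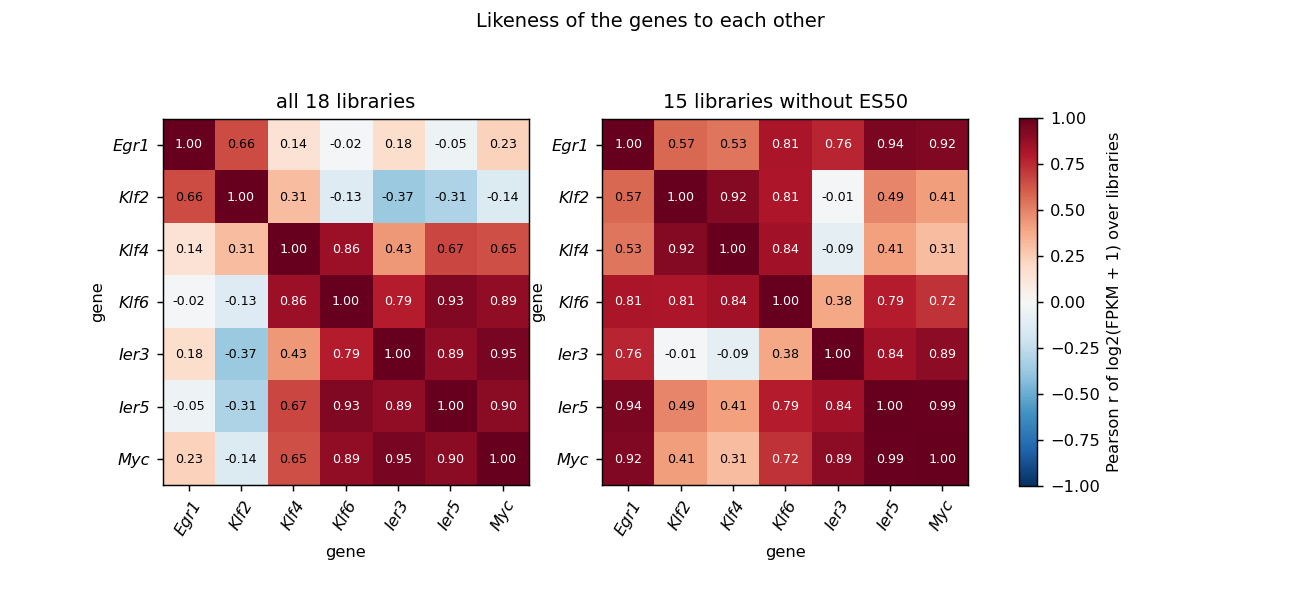
Pearson's r of log2(FPKM + 1) between each pair of the 7 genes, over all 18 libraries (left) and over the 15 libraries without ES50 (right), on a colour scale from -1 to 1. Without ES50, Ier5 and Myc are most alike at 0.986, and Klf2 and Klf4 stand apart from Ier3.

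The other members of these families and pathways were taken from 7 lists, and their counts stand beside the share of all tested genes that passed in the same direction. Of the EGR family and its NAB corepressors, 3 of 6 were tested, and Egr3, Egr4 and Wt1 did not pass the filter. Egr2, a paralog of Egr1, rose after 10 pulses with PE (log2 change 0.71, limma adjusted p = 4.69e-04), and Nab1 rose with it (0.25, adjusted p = 0.00508), where 13.2% of tested genes rose. Without PE, none of the 3 passed at 10 pulses. At 50 pulses without PE, Nab1 rose by 1.22 on the deposited scale and Egr2 and Nab2 fell. Of all tested genes, 31.9% rose and 40.1% fell on that scale. On total reads all 3 fell, as did 11471 of 11917 tested genes.

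Of the other KLF genes, 9 of 14 were tested. After 10 pulses without PE 1 rose, Klf5 (0.57, adjusted p = 5.05e-04), a factor of proliferating smooth muscle, where 6.36% of tested genes rose. With PE 4 rose (13.2% of tested genes) and none fell, among them Klf5 (0.76), Klf11 (0.73) and Klf16 (0.16). PE alone lowered 5 of the 9, with Klf9 (-0.38), Klf5 (-0.36) and Klf16 (-0.21) leading by p, and raised none, where 4.81% of tested genes fell. At 50 pulses without PE 1 rose and 6 fell, against 31.9% and 40.1% of tested genes. With PE 4 rose and 1 fell, against 14.1% and 14.2%. On total reads 9 fell without PE and 7 with PE, as did 11471 and 10461 of 11917 tested genes.

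Of the upstream kinases and factors of the ERK and serum response factor route, 15 of 18 were tested. After 10 pulses without PE 1 passed, the muscle factor Mef2c (-0.33, adjusted p = 0.0266), and with PE 3 rose and 4 fell, including Mef2c (-0.45), Mef2d (-0.26) and Srf (-0.29), the gene of serum response factor. Of all tested genes 2.21% fell without PE, and 13.2% rose and 9.66% fell with it. Srf was higher with PE alone (0.29, adjusted p = 0.0093). At 50 pulses without PE 6 rose and 6 fell on the deposited scale, near the 31.9% and 40.1% of all tested genes. The ERK pathway kinases Map2k2 (1.18) and Mapk3 (1.26) were among those that rose. On total reads all 15 fell, as did 11471 of 11917 tested genes.

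Of the other early response genes, 27 of 29 were tested. After 10 pulses without PE 10 rose and 2 fell, led by p by Fosl1 (1.00), Maff (0.62) and Dusp5 (0.48), an AP-1 subunit, a small MAF protein and an ERK phosphatase. With PE 15 rose and 4 fell, led by Maff (1.34), Fos (2.32) and Fosb (2.55). Of all tested genes 6.36% rose and 2.21% fell without PE, and 13.2% rose and 9.66% fell with it. The median of the 27 was 0.17 without PE and 0.48 with PE, against 0.02 and 0.00 over all tested genes. PE alone lowered 12 and raised 4, against 4.81% and 4.72% of tested genes, and 2 of those raised were Cyr61 (1.57) and Ctgf (1.15), both matricellular genes. Of the 27, 7 rose and 20 fell after 50 pulses without PE on the deposited scale, against 31.9% and 40.1% of tested genes. Their median was -0.80, against -0.13 over all tested genes. On total reads all 27 fell, as did 11471 of 11917 tested genes. After 50 pulses with PE 9 rose and 9 fell, against 14.1% and 14.2% of tested genes. Dusp5 rose by 1.76 and, in the other direction, Cyr61 changed by -2.65 and Ctgf by -2.05. On total reads 2 rose and 20 fell, where 90 of 11917 tested genes rose and 10461 fell.

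The interaction of PE and 10 pulses passed for 5 higher and 2 lower of these 27 genes, against 0.906% of tested genes in either direction, led by Fos (1.64, adjusted p = 2.03e-04), Maff (0.71, adjusted p = 3.42e-04) and Fosb (1.49, adjusted p = 9.20e-04). Fos stood at a mean of 8.38 FPKM in P, 45.8 in P_ES10 and 5.63 in P_ES50, and Fosb at 6.38, 42.0 and 7.59. Like Klf2 and Klf4, both were high after 10 pulses with PE and low after 50.

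Of 24 genes that MYC is known to activate, all tested, 5 rose and none fell after 10 pulses without PE, led by the nucleolar genes Gnl3 (0.44) and Npm1 (0.21) and by Odc1 (0.25), the first enzyme of polyamine synthesis. Their median was 0.01, against 0.02 over all tested genes. With PE 7 rose and 4 fell, led by Odc1 (0.55), Gnl3 (0.52) and Npm1 (0.26), with a median of 0.03. On the deposited scale 6.36% of all tested genes rose and 2.21% fell without PE, and 13.2% rose and 9.66% fell with it. Without PE, 6 rose and 1 fell on total reads, and 3 rose and 3 fell on reads on nuclear genes. With quantile normalization 3 rose and 2 fell. With PE the counts were 6 and 7, 5 and 6, and 6 and 6 in that order. On reads on nuclear genes 356 of 11917 tested genes rose and 620 fell without PE, and 1077 rose and 1672 fell with it. On total reads 920 rose and 761 fell without PE, and 1521 rose and 2875 fell with it. With quantile normalization 699 rose and 534 fell without PE, and 1572 rose and 1642 fell with it. After 50 pulses with PE 7 rose and 2 fell (14.1% and 14.2% of tested genes). On total reads none rose and 23 fell, where 90 of 11917 tested genes rose and 10461 fell. After 50 pulses without PE 6 rose, Cdk4 (1.31) and Odc1 (1.02) among them, and 14 fell (31.9% and 40.1% of tested genes). All 24 were lower on total reads, as were 11471 of 11917 tested genes. Of 11 partners and antagonists of MYC, 1 rose (Mga, 0.44) and 1 fell (Mxi1, -0.32) at 10 pulses without PE. With PE 4 rose and 1 fell, with Mga at 0.57, Mlxip at 0.37 and the antagonist Mxi1 at -0.56. The shares or numbers of all tested genes that passed at 10 pulses are those above for each scale. On reads on nuclear genes none of the 11 rose and 1 fell without PE, and 2 rose and 1 fell with it. On total reads 2 rose and 2 fell without PE, and 5 rose and 1 fell with it.

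All 8 genes listed as known EGR1 targets were tested. After 10 pulses without PE the coagulation starter F3 rose (0.63, adjusted p = 0.00152) and Pdgfa (-0.34) and Tgfb1 (-0.55) fell. With PE F3 rose (0.90), and Pdgfa (-0.64) and Tgfb1 (-0.96), both growth factor genes, were among 3 that fell. Of all tested genes 6.36% rose and 2.21% fell without PE, and 13.2% rose and 9.66% fell with it. After 50 pulses without PE 7 of 8 fell, where 40.1% of tested genes fell. On total reads all 8 fell, as did 11471 of 11917 tested genes. After 50 pulses with PE 3 rose and 3 fell, with the stress cytokine Gdf15 at 2.56 (limma adjusted p = 8.18e-08). Of all tested genes 14.1% rose and 14.2% fell. On total reads 1 rose and 6 fell, where 90 of 11917 tested genes rose and 10461 fell.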

How the data were processed

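The authors deposited FPKM per gene for 32545 genes in 18 libraries of total RNA selected for poly(A). The submitters' processing notes name Rnor 6.0 as the genome build. The sources used here give no aligner, counter or strandedness. FPKM times gene length gave whole reads (tolerance 0.01 of a read) for 100% of values, so reads per library were recovered.

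Genes with at least 1 FPKM in at least 3 libraries entered limma 3.58.1 (R 4.3.3, with trend) as log2(FPKM + 1), with all 18 libraries and 6 group means in a single model. Each SE and p-value of this model thus rests on a spread per gene pooled over all 6 groups, also where the groups spread unequally. Changes of low genes are understated on this scale. P-values were Benjamini-Hochberg adjusted within each of 11 contrasts and called under 0.05. The script was tested on simulated data, with a spread that was set and not taken from these libraries. In simulated ES10 versus NC it recovered 24% of 1.5-fold, 68% of 2-fold, 94% of 4-fold and 98% of 8-fold changes. Alternatives were another pseudocount, no filter, 3 other scalings, fewer groups, a replicate block, voom on recovered reads, and each library left out.

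The genes and the 7 companion lists were chosen with earlier results of these data known. All genes found are named, with up to 3 per list and contrast by smallest adjusted p. Likeness used genes with a mean of at least 5 FPKM. No genome of the files' build was used.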

Additional observations from a re-analysis of the deposited data

Results flagged for a closer look

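The response to pulses differed with PE by the interaction term of limma for the following genes, given as the log2 response with PE minus that without PE. At 10 pulses the difference was 1.18 for Egr1 and 1.11 for Klf2. Both were lower in P than in NC (-1.02 and -0.49), and Egr1 did not pass between P_ES10 and ES10 (0.15, limma adjusted p = 0.81). At 50 pulses it was 0.76 for Egr1, -1.21 for Klf2, 1.87 for Klf4, 1.93 for Klf6, 3.11 for Ier3, 2.11 for Ier5 and 3.11 for Myc. The value of Klf2 at 50 pulses changed its sign on total reads (1.14), where the median over all tested genes was 1.65.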

How the results depend on the processing

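Scaling to total reads reversed Egr1 and Klf2 in ES50 versus NC (-2.39 and -2.06) and in ES50 versus ES10 (-2.92 and -2.63), and in P_ES50 versus ES50 (2.21 and 0.73). It also reversed Klf6 and Ier5 in P_ES50 versus P (-0.53 and -0.26), Myc in P_ES50 versus P_ES10 (-0.66), Ier3 in P_ES10 versus ES10 (0.025) and Klf2 in the interaction at 50 pulses (1.14), and 7 of the genes then passed in P_ES50 versus P. Reads on nuclear genes gave Ier5 0.039 in P_ES50 versus P_ES10 and ended the call of Ier5 in ES10 versus NC (adjusted p = 0.0851). Klf2 in P_ES10 versus ES10 was lost, leaving 0 of the 7, at a pseudocount of 0.1, without the filter on low values, and with the replicate block (adjusted p = 0.0604). Only the groups compared gave 7 in P versus NC, 2 in P_ES10 versus ES10 and 6 in the interaction at 10 pulses, as did voom on recovered reads (7, 2 and 6), and a fit without the 50-pulse libraries gave 7 and 6 for the first and the last.

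With 1 library left out, the genes that passed numbered 2 to 6 in ES10 versus NC, 1 to 2 in the interaction at 10 pulses and 0 to 0 in P_ES10 versus ES10. Klf2 in P_ES50 versus P ran from -0.19 to 0.018, and Ier5 in P_ES50 versus P_ES10 from -0.055 to 0.025. Same-numbered libraries of 2 groups showed no strong shared deviation (every correlation over 0.1 in 0 of 15 pairs of groups). The correlations ran from -0.088 to 0.101, and those of NC and ES10 from 0.034 to 0.101. The main fit did not pair the libraries, and a weak shared deviation cannot be told from these values. The replicate block also moved Klf2 in P versus NC to an adjusted p of 0.0599 and ended no other call of the 7 genes.

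Over all genes, the number called in ES10 versus NC was 1021, and 1681 on total reads, 2246 with only the groups compared, 2904 without the 50-pulse libraries, 2812 with voom and 580 to 651 with 1 library left out. In P versus NC it was 1136, and 2989, 2724, 3580, 3532 and 626 to 766. In P_ES10 versus P it was 2724, and 4396 on total reads, 4708, 5101 and 5094. In P_ES10 versus ES10 it was 215, and 478, 877, 1322, 1365 and 79 to 98. In the interaction at 10 pulses it was 108, and 265, 693, 693, 790 and 61 to 94. In P_ES50 versus P_ES10 it was 2784, and 10403 on total reads and 4419 with voom. On total reads it was 10551 in P_ES50 versus P (3370 as deposited) and 10591 in the interaction at 50 pulses (7036). Higher and lower calls on total reads were 34 and 11471 in ES50 versus NC (3802 and 4781 as deposited), 36 and 11479 in ES50 versus ES10 (3932 and 4921), 90 and 10461 in P_ES50 versus P (1679 and 1691), 55 and 10348 in P_ES50 versus P_ES10 (1249 and 1535) and 11107 and 35 in P_ES50 versus ES50 (4494 and 3800). They were 2431 and 558 in P versus NC (563 and 573), 1521 and 2875 in P_ES10 versus P (1573 and 1151) and 920 and 761 in ES10 versus NC (758 and 263). Low read numbers limit Klf4, Myc, Klf6 and Klf2 in ES50.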
